A study of Mus musculus with 12 samples.

Results

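The 10 genes described here encode secreted growth factors that act on blood vessels and on the mesenchymal cells around them. They were taken by symbol as a list, Vegfa, Vegfb, Vegfc, Pgf, Angpt2, Angptl4, Adm, Pdgfa, Pdgfb and Hgf, and all 10 were found among the 24035 genes used of each library. No threshold on a measured value entered this choice, but the list was made with earlier results of these data known. RNA was sequenced in 12 libraries of cells from C57BL/6J mouse bone marrow, 3 in each of 4 groups, and each library was prepared from 1000 to 5000 sorted cells. The fresh groups, GFPneg and GFPpos, were sorted without CD45, Ter119 and CD31, the markers of blood cells, of red cell precursors and of endothelium, and were negative or positive for a green fluorescent reporter of Scf (stem cell factor). The control group was stroma grown in culture from reporter-positive cells, with a control vector transduced into it. The rMSC group was the same kind of culture transduced with Klf7, Ostf1, Xbp1, Irf3 and Irf7. Both cultures grew in alpha-MEM with 20% serum and 10 ng/ml of basic FGF, itself an angiogenic factor. The labels give no age of the mice, and nothing in them ties a library to its own animal or culture, so the error behind each p-value is the spread between libraries, which may be technical.

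Vascular endothelial growth factors (VEGF) bind receptor tyrosine kinases on endothelial cells, helped by the neuropilins. VEGF-A drives the growth of blood vessels, VEGF-C acts mainly on lymphatic vessels, and VEGF-B and placental growth factor (Pgf) bind Flt1, which also acts as a decoy for VEGF-A. Angiopoietin 2 (Angpt2) competes with angiopoietin 1 on the receptor Tek and loosens vessel walls, angiopoietin-like 4 (Angptl4) inhibits lipoprotein lipase, adrenomedullin (Adm) is a vasodilator peptide, the platelet-derived growth factors (PDGF) recruit mesenchymal cells and pericytes, and hepatocyte growth factor (Hgf) signals through Met. In the marrow, stromal cells lie along the sinusoids and supply the endothelium with several of these factors. Vegfa, Adm, Angptl4 and Pdgfb are among the genes that hypoxia-inducible factors (HIF) are known to induce, and Angptl4 is also a target of the PPAR nuclear receptors.

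Start-site sequences were available for 7 of the 10 genes in 11 windows of RefSeq (GRCm38.p6). Shown is 1 window for each of 3 genes, because, of the 7 genes, Vegfa, Adm and Hgf had the highest levels per kilobase of exon in control, and all 3 were lower in rMSC. The choice between the windows of Vegfa and of Hgf did not follow from these levels. For both genes the window shown holds a marked match. The Vegfa window shown is the only 1 of the 11 with the interferon regulatory factor motif. Each sequence is the 250 bases before a transcription start, read 5′ to 3′ on the gene's strand. Capitals in Vegfa mark a match to the interferon regulatory factor motif GAAANNGAAA, here on the opposite strand and beginning 142 bases before the start, and capitals in Adm and Hgf mark the HIF core motif GCGTG on the opposite strand. The Vegfa window lies at chr17:46032378-46032627 on the minus strand, the Adm window at chr7:110627407-110627656 on the plus strand and the Hgf window at chr5:16553245-16553494 on the plus strand. Vegfa and Hgf each had a further window, not shown, at chr17:46025164-46025413 and chr5:16553651-16553900. Both of these lie inside the gene models, which span chr17:46016993-46032369 and chr5:16553495-16620152. The further window of Vegfa held matches to both forms of the HIF core, ACGTG and GCGTG, and that of Hgf held no match.
Vegfa: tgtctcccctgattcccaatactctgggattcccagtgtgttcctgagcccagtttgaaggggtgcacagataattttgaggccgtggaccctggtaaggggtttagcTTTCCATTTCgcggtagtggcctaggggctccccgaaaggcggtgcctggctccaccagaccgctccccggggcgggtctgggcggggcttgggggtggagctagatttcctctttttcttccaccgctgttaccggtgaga
Adm: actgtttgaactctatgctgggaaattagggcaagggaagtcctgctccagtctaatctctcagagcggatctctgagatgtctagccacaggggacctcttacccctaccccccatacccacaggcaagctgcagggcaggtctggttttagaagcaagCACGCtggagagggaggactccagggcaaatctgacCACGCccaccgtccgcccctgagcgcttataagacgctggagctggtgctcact
Hgf: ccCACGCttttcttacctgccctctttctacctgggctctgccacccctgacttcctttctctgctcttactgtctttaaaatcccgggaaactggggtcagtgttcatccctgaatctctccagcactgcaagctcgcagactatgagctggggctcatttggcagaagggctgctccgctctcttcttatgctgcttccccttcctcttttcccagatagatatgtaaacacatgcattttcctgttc
Both strands of the whole windows of 300 bases, which also take in 50 bases after the start, were searched. The interferon regulatory factor motif was in 1 of the 11 windows and in 3.4% of the 32851 windows of all genes. The HIF core, as ACGTG or GCGTG, was in 6 of the 11 windows and in 43.8% of all windows. GCGTG was in 6 of the 11 windows (32.4% of all windows) and ACGTG in 1 (19.6%), which was also the only match to GACGTG (6.4%), a longer motif that contains ACGTG. The window with ACGTG is the Vegfa window that is not shown and that lies inside the gene. These matches are letters in a window and were not tested for binding. Angpt2, Angptl4 and Pdgfb had no entry.

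Each library held 60396342 to 85186405 counts over the genes used, and 13639 to 15461 genes had a count. The 5 transduced genes were higher in rMSC than in control, from 1.80-fold for Xbp1 to 23.6-fold for Irf3. Marrow stroma markers (10 of 10 in the files) summed to 162280 to 207450 CPM (counts scaled to library size) in GFPpos, to 1.97 to 45.4 in GFPneg, to 28150 to 28532 in control and to 14141 to 14328 in rMSC. GFPneg libraries thus held almost none of these markers, while erythroid markers (10 of 10) summed to 5629 to 5863 CPM there, 908.4 to 1642 in GFPpos and at most 36.0 in the cultures. A sum follows its most abundant genes, such as Cxcl12 of the stroma list, at 32700 CPM on average in GFPpos. Between the cultures Cxcl12 stood at 5636 CPM in control and 1217 in rMSC. Kitl, the Scf gene on the same list, went the other way, from 33.8 to 249.65 CPM. The stroma and osteoblast lists share Col1a1. Monocyte and macrophage markers (9 of 10) summed to 327.8 to 623.2 CPM in GFPpos and 103.8 to 158.7 in GFPneg, osteoblast markers (9 of 9) to 91550 to 134450 and 0.561 to 4.14, and pericyte and smooth muscle markers (8 of 8) to 865.4 to 2233 and 1.01 to 1.62. Granulocyte markers (10 of 10) summed to 852.4 to 4137 CPM in GFPpos and 772.9 to 1407 in GFPneg, which overlapped. Endothelial markers (12 of 12) summed to 250.6 to 438.3 CPM in GFPpos, 65.1 to 92.8 in GFPneg, 14.7 to 17.4 in control (Cdh5, Tie1 and Robo4 at 0) and 11.0 to 13.1 in rMSC (Cdh5, Kdr, Tie1 and Robo4 at 0). Megakaryocyte markers (10 of 10) summed to 213.5, 3621 and 3030 CPM in the 3 GFPpos libraries, to 20.8 to 210.1 in GFPneg, 42.6 to 46.1 in control and 13.2 to 14.9 in rMSC. In these bulk libraries, fewer cells of a type and less RNA per cell cannot be told apart.

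The fresh comparison asked what set reporter-positive stroma apart from the other sorted cells, and nearly the whole set of growth factor genes was higher in GFPpos. Of the 10 genes, 9 were higher and 1, Vegfb, was lower, where 40.5% of all 15163 genes tested were called higher and 36.5% lower (edgeR quasi-likelihood F-test, adjusted p under 0.05). The median log2 fold change was 7.74 over the 10 genes, or 7.57 with the genes at 0 in GFPneg set at their bound, and 0.08 over all genes. Stromal, osteoblast, pericyte, endothelial, megakaryocyte and macrophage markers were also higher in GFPpos with no overlap, and their part in these calls was not tested. The culture comparison, control against GFPpos, split the genes: 3 were higher (32.5% of all genes) and 6 lower (35.9%), with a median of -1.30 against -0.04 over all genes. In the comparison of rMSC with control, 4 were higher (24.5% of all genes) and 6 lower (25.5%), with medians of -1.03 and -0.01. In rMSC against GFPpos, 2 were higher (33.4% of all genes) and 8 lower (38.2%), with medians of -4.18 and -0.08. The median absolute log2 fold change over the 10 genes was 7.74, 4.24, 1.94 and 4.18 in the 4 comparisons and 1.20, 0.89, 0.56 and 1.04 over all genes. These medians use fitted values, also for genes at 0 in 1 group. The 10 genes were listed with earlier results of these data known, so their distance from all genes is a description and no test. These comparisons share libraries, since GFPpos enters 3 of them and each culture enters 2.

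**Figure D1:**
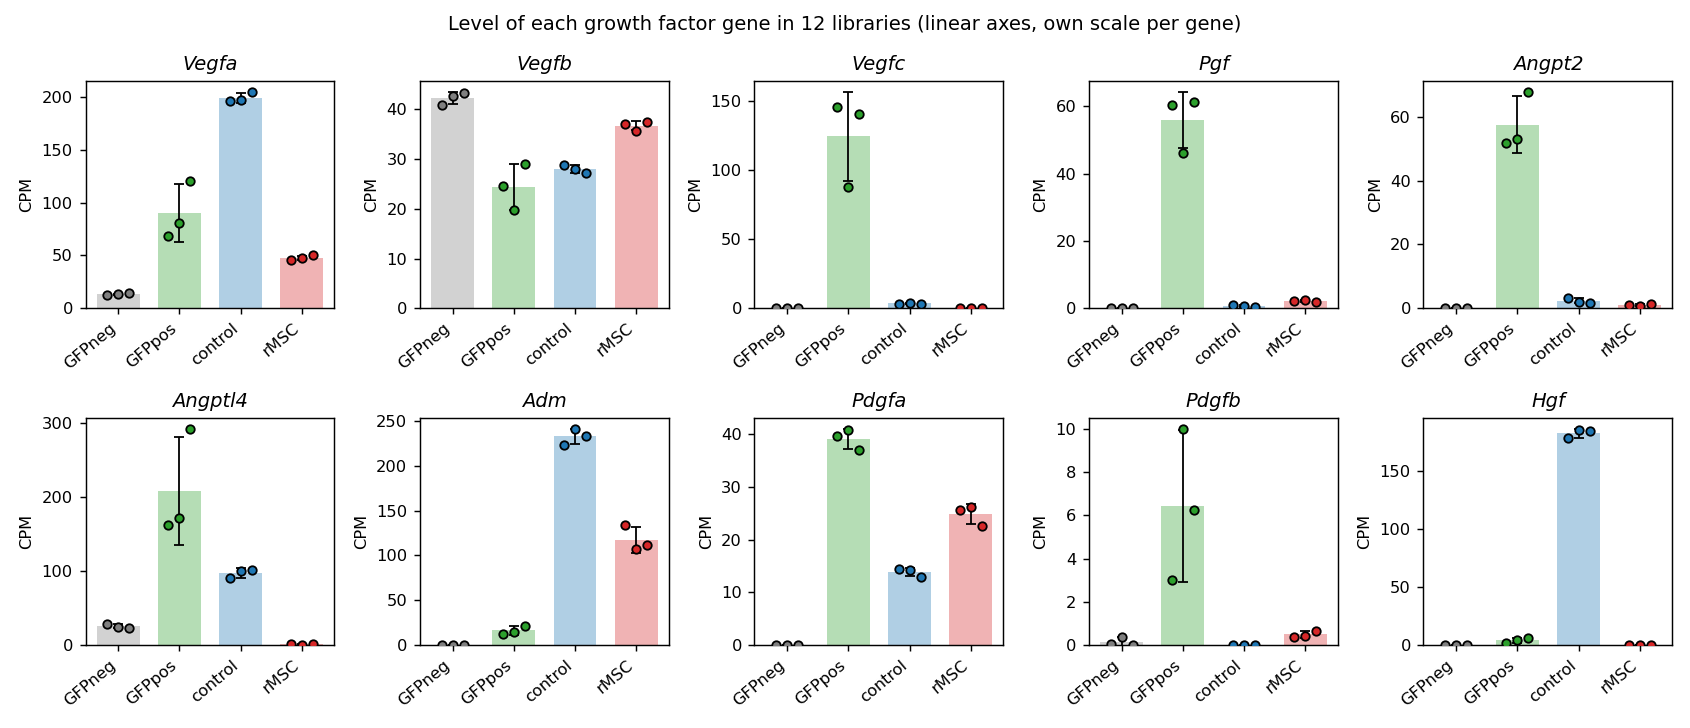
Level of each growth factor gene in CPM on a linear axis with its own scale, for 3 libraries (points) in each of 4 groups, with bars at the mean and whiskers of 1 SD. Vegfc, Pgf, Angpt2 and Pdgfb stand high in GFPpos alone, Hgf stands high in control alone, at 177.8 to 185.3 CPM, and Vegfb lies between 19.7 and 43.2 CPM in all 12 libraries.

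Vegfa (chr17:46016993-46032369, minus strand; gene positions are on GRCm38) was present in every library and differed between all 4 groups. Its level was 12.54, 13.17 and 14.00 CPM in GFPneg, 68.7, 80.8 and 120.9 in GFPpos, 45.7, 47.7 and 50.01 in rMSC and 196.1, 197.6 and 205.1 in control. No 2 groups overlapped, and the order was control, GFPpos, rMSC, GFPneg. It was 6.81-fold higher in GFPpos than in GFPneg (log2 fold change 2.77 ± 0.17 SE, adjusted p = 1.09e-07, edgeR) and 2.21-fold higher in control than in GFPpos (1.15 ± 0.16, adjusted p = 0.000101). With the 5 genes it was 4.18-fold lower than in control (-2.06 ± 0.17, adjusted p = 3.08e-06), which also put it 1.89-fold below GFPpos (-0.91 ± 0.16, adjusted p = 0.000458). All 3 rMSC libraries lay below the lowest GFPpos library.

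Vegfb (chr19:6982473-6987651, minus strand), which is known less for vessel growth than for effects on fatty acid uptake, differed least between the groups and the only one that was highest in GFPneg. Its level was 40.9, 42.7 and 43.2 CPM in GFPneg, 24.6, 19.7 and 29.0 in GFPpos, 37.0, 35.6 and 37.5 in rMSC and 28.7, 28.0 and 27.2 in control. GFPpos overlapped control, while GFPneg and rMSC stood apart from both and from each other. GFPpos was 1.73-fold below GFPneg (adjusted p = 7.75e-05), rMSC was 1.31-fold above control (0.39 ± 0.12, adjusted p = 0.0153) and 1.504-fold above GFPpos (adjusted p = 0.000868). Control against GFPpos did not pass (0.20 ± 0.12, adjusted p = 0.154), but passed without GFPpos replicate 3 (0.34, adjusted p = 0.00616). The rMSC difference from control missed the threshold without control replicate 3 (0.37, adjusted p = 0.0546).

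Vegfc (chr8:54077606-54187096, plus strand), the lymphatic factor, was all but confined to GFPpos. It stood at 145.8, 87.7 and 140.4 CPM in GFPpos and at 3.21, 4.16 and 3.13 in control. GFPneg held 20, 0 and 0 counts and rMSC 0, 4 and 0. GFPneg and rMSC overlapped each other, and both lay below every control library. Control was 35.6-fold below GFPpos (-5.15 ± 0.53, adjusted p = 9.09e-06), and rMSC was lower again than control (-7.30 ± 0.93, adjusted p = 8.13e-05) and than GFPpos (-12.45 ± 0.87, adjusted p = 3.23e-07). These last fold changes rest on 4 counts in rMSC and moved to -10.93 and -16.08 without rMSC replicate 2, and to -6.70 and -11.85 without replicate 3. GFPpos was higher than GFPneg by 10.44 ± 0.75 (adjusted p = 2.8e-07), by 16.08 without GFPneg replicate 1, by 9.81 without replicate 2 and by 9.84 without replicate 3. Replicate 1 of GFPneg holds all 20 counts and also has the highest marrow stroma sum of its group (45.4 CPM, against 1.97 and 3.18). Its endothelial, macrophage, granulocyte, osteoblast and B cell sums were the highest of the group as well, while its erythroid, megakaryocyte and pericyte sums were not. The part of these markers in the Vegfc counts was not tested.

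Pgf (chr12:85166635-85177790, minus strand) followed the same order in the fresh cells but a different one in culture. It stood at 60.3, 46.2 and 61.2 CPM in GFPpos, 0.88, 0.60 and 0.42 in control and 2.24, 2.58 and 1.93 in rMSC, with 8, 0 and 4 counts in GFPneg. No groups overlapped. The cultures lay 88.2-fold (control, -6.45 ± 0.44, adjusted p = 3.83e-07) and 24.8-fold (rMSC, -4.63 ± 0.39, adjusted p = 1.47e-06) below GFPpos. Within the cultures rMSC was 3.55-fold above control (1.82 ± 0.39, adjusted p = 0.00254), so that Pgf and Vegfc, both high in GFPpos, moved in opposite directions with the 5 genes. GFPpos was above GFPneg by 10.01 ± 0.55 on the log2 scale (adjusted p = 4.05e-08), by 11.07 without GFPneg replicate 1 and by 9.40 without GFPneg replicate 2.

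The make-up of the VEGF family changed from group to group. Levels per kilobase of exon were used to compare its 5 genes, with VEGF-D, which the files list as Figf, added as the family's other lymphatic factor. Vegfb made up 89.3% of the family in GFPneg, Vegfc 47.2% in GFPpos, Figf 47.4% in control and Vegfb 43.7% in rMSC. Vegfa made up 10.5, 19.8, 37.3 and 21.3% in the same order of groups, and Pgf 18.1% in GFPpos and at most 1.48% elsewhere. The family sum was 29.5 ± 0.839 CPM per kilobase (SD, n = 3) in GFPneg, 107.1 ± 21.8 in GFPpos, 52.4 ± 1.76 in rMSC and 124.7 ± 1.74 in control. The sums of GFPpos (83.1 to 125.6) and control (122.7 to 125.7) overlapped, although the leading gene differed. Figf rose from 1.75 ± 0.960 CPM in GFPpos to 142.2 ± 3.56 in control (6.33 ± 0.44, adjusted p = 4.49e-07), where Vegfc fell from 124.6 ± 32.1 to 3.50 ± 0.569. With the longest transcript in place of all exons, the leading gene of each group was unchanged and its share was 89.4, 40.8, 46.0 and 44.6%.

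**Figure D2:**
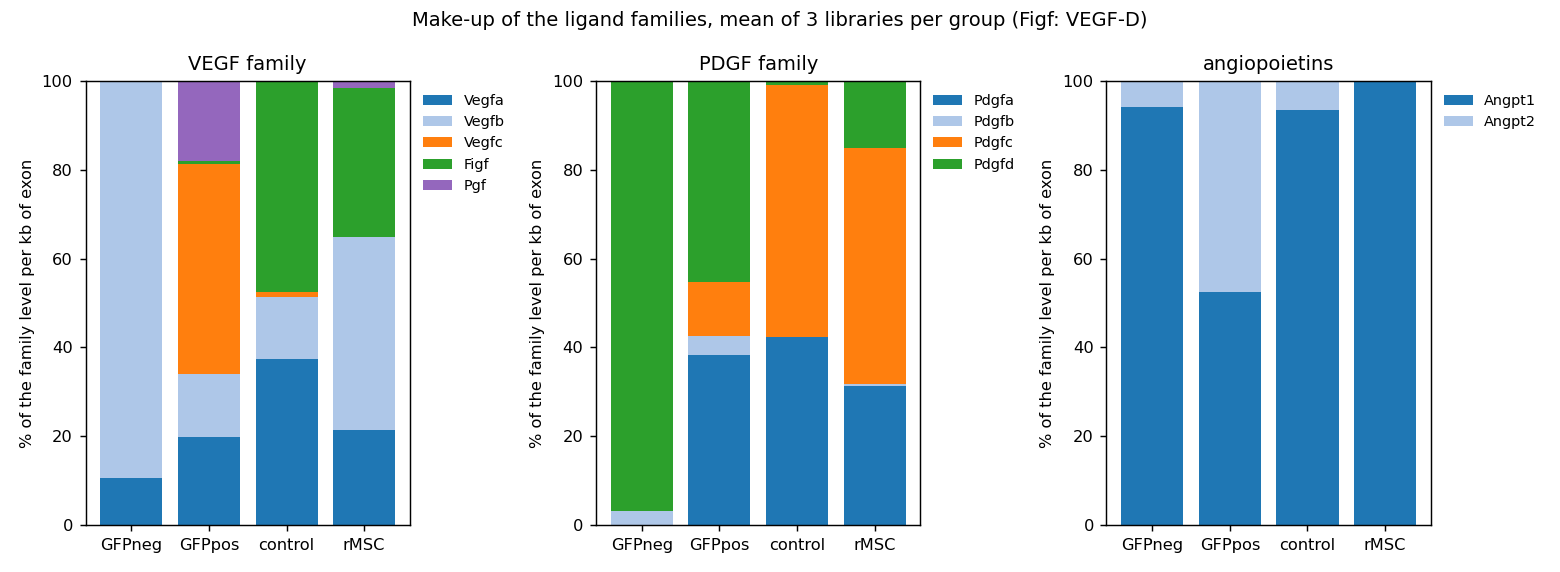
Share of each gene in the level per kilobase of exon of its family (percent, mean of 3 libraries) in the 4 groups, for the VEGF family, the PDGF family and angiopoietins 1 and 2. Vegfb leads the VEGF family in GFPneg and rMSC, Vegfc leads it in GFPpos and Figf in control, and Angpt2 reaches 47.6% of the angiopoietins in GFPpos and 0.231% in rMSC.

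Angpt2 (chr8:18690263-18741562, minus strand) stood at 51.7, 52.9 and 67.8 CPM in GFPpos, 3.20, 2.07 and 1.67 in control, 1.14, 0.73 and 1.41 in rMSC and 0.13, 0.08 and 0.11 in GFPneg. The 4 groups did not overlap. It was 525-fold higher in GFPpos than in GFPneg (9.03 ± 0.39, adjusted p = 5.87e-09), 24.9-fold lower in control than in GFPpos (-4.63 ± 0.30, adjusted p = 2.66e-07) and 2.11-fold lower in rMSC than in control (-1.08 ± 0.28, adjusted p = 0.00808). Its counterpart Angpt1, which steadies vessels and is made by stroma, was also lower in control (45.9 ± 0.565 CPM) than in GFPpos (89.3 ± 11.7). Between the cultures Angpt1 moved the other way from Angpt2, from its control level to 670.1 ± 9.85 CPM in rMSC (3.87 ± 0.24, adjusted p = 3.98e-07). Per kilobase, Angpt2 made up 5.89% of both angiopoietins in GFPneg, 47.6% in GFPpos, 0.231% in rMSC and 6.62% in control. The GFPneg share rests on a sum of 0.578 CPM per kilobase.

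Angptl4 (chr17:33773750-33781830, minus strand) was high in GFPpos and control and nearly gone in rMSC. It stood at 28.3, 24.5 and 23.0 CPM in GFPneg, 161.9, 171.4 and 293.0 in GFPpos and 90.4, 100.1 and 102.1 in control. In rMSC it was down to 0.78, 0.63 and 0.65 CPM, from 48, 40 and 46 counts. No groups overlapped, and rMSC lay below GFPneg as well. GFPpos was 8.26-fold above GFPneg (3.05 ± 0.21, adjusted p = 2.09e-07) and control 2.14-fold below GFPpos (-1.10 ± 0.20, adjusted p = 0.000492). With the 5 genes the level was 142-fold below control (-7.15 ± 0.27, adjusted p = 1.99e-08) and 304-fold below GFPpos (-8.25 ± 0.28, adjusted p = 2.93e-09).

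Adm (chr7:110627661-110629820, plus strand) had its highest level in culture. It had 0 counts in all 3 GFPneg libraries and stood at 12.6, 14.7 and 21.4 CPM in GFPpos, 223.8, 241.5 and 233.3 in control and 134.0, 106.9 and 111.4 in rMSC. The groups did not overlap, in the order control, rMSC, GFPpos, GFPneg. GFPpos was at least 416-fold higher than GFPneg, counted at a floor of 3 counts in each GFPneg library (adjusted p = 2.6e-08), and such floors cover counting error only. Control was 14.3-fold above GFPpos (3.84 ± 0.20, adjusted p = 3.99e-07), rMSC was 1.98-fold below control (-0.99 ± 0.18, adjusted p = 0.00166) and 7.22-fold above GFPpos (2.85 ± 0.19, adjusted p = 1.37e-06).

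Pdgfa (chr5:138976014-138997370, minus strand), whose product binds the alpha receptor of mesenchymal cells, had 0 counts in GFPneg and was the member with the least spread in GFPpos. It stood at 39.8, 40.7 and 37.0 CPM in GFPpos, 14.3, 14.2 and 12.98 in control and 25.6, 26.2 and 22.7 in rMSC, and the groups did not overlap. GFPpos was at least 1001-fold above GFPneg (adjusted p = 3.3e-10), control 2.83-fold below GFPpos (-1.50 ± 0.10, adjusted p = 2.18e-06) and rMSC 1.79-fold above control (0.84 ± 0.10, adjusted p = 0.000149), still 1.58-fold below GFPpos (-0.66 ± 0.10, adjusted p = 0.000331). Of its exon bases, 26.1% also lie in a gene model on the opposite strand, 6330403L08Rik, which has no row in the count files, and the library kit does not mark strand.

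Pdgfb (chr15:79995874-80014977, minus strand), known as a product of endothelium, megakaryocytes and platelets that recruits pericytes, was low throughout. It stood at 2.99, 10.0 and 6.26 CPM in GFPpos and 0.36, 0.44 and 0.66 in rMSC, with 4, 32 and 0 counts in GFPneg and 0 in every control library. GFPneg overlapped rMSC and control, while GFPpos lay above all other groups. GFPpos was 43.7-fold above GFPneg (5.41 ± 1.20, adjusted p = 0.00268), and its log2 fold change was 7.76 without GFPneg replicate 2. Control was at least 151-fold below GFPpos (adjusted p = 0.000467) and rMSC at least 11.4-fold above control (adjusted p = 0.00685). The difference of rMSC from GFPpos (-3.72 ± 1.09, adjusted p = 0.0136) missed the threshold without rMSC replicate 1 (-3.53, adjusted p = 0.0547) and without rMSC replicate 2 (-3.64, adjusted p = 0.0517). Among the GFPpos libraries, Pdgfb was lowest in replicate 1 and highest in replicate 2, which is the order of the megakaryocyte marker sums (213.5, 3621 and 3030 CPM) and of the endothelial sums (250.6, 438.3 and 346.4 CPM). The marrow stroma sums (162280, 207450 and 201580 CPM) and osteoblast sums (91550, 134450 and 123460 CPM), whose lists share Col1a1, held this order too. The erythroid, macrophage, granulocyte, B cell and pericyte sums did not. In GFPneg, replicate 2 holds 32 of the 36 counts and has a megakaryocyte sum of 210.1 CPM, against 21.9 and 20.8 in the others. The part of these markers in the Pdgfb values was not tested.

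Within the PDGF family, Pdgfa and Pdgfb were compared per kilobase with Pdgfc and Pdgfd. The family sum was 34.5 ± 8.53 CPM per kilobase in GFPpos, 10.5 ± 0.590 in control, 25.5 ± 0.509 in rMSC and 1.24 ± 0.121 in GFPneg. Pdgfa made up 38.2% of it in GFPpos, 42.3% in control and 31.2% in rMSC, and Pdgfb 4.26% or less in every group. Pdgfd led in GFPpos (45.2%) and Pdgfc in control (56.8%) and rMSC (53.2%), but with the longest transcript Pdgfa led in GFPpos, at 45.2% against 36.1% for Pdgfd.

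Hgf (chr5:16553495-16620152, plus strand) showed the greatest difference between the cultures of the 10 genes. It stood at 177.8, 185.3 and 184.1 CPM in control, 1.62, 4.21 and 6.03 in GFPpos and 0.06, 0.02 and 0.05 in GFPneg, and rMSC held 8, 10 and 0 counts (0.13, 0.16 and 0 CPM). GFPneg and rMSC overlapped, GFPpos lay above both, and control lay far above all other libraries. Control was 46.1-fold above GFPpos (5.54 ± 0.45, adjusted p = 1.36e-06), and rMSC was 1907-fold below control (-10.92 ± 0.63, adjusted p = 2.59e-07) and 41.3-fold below GFPpos (-5.38 ± 0.64, adjusted p = 2e-05). Without rMSC replicate 3, which has no Hgf count, these were -10.29 and -4.75. GFPpos was 89.4-fold above GFPneg (6.44 ± 0.70, adjusted p = 7.11e-06), with log2 fold change 7.06 when replicate 1 of both fresh groups was left out. A gene model on the same strand, Gm43489, shares 6.74% of the exon bases of Hgf and has no row in the files.

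**Figure D3:**
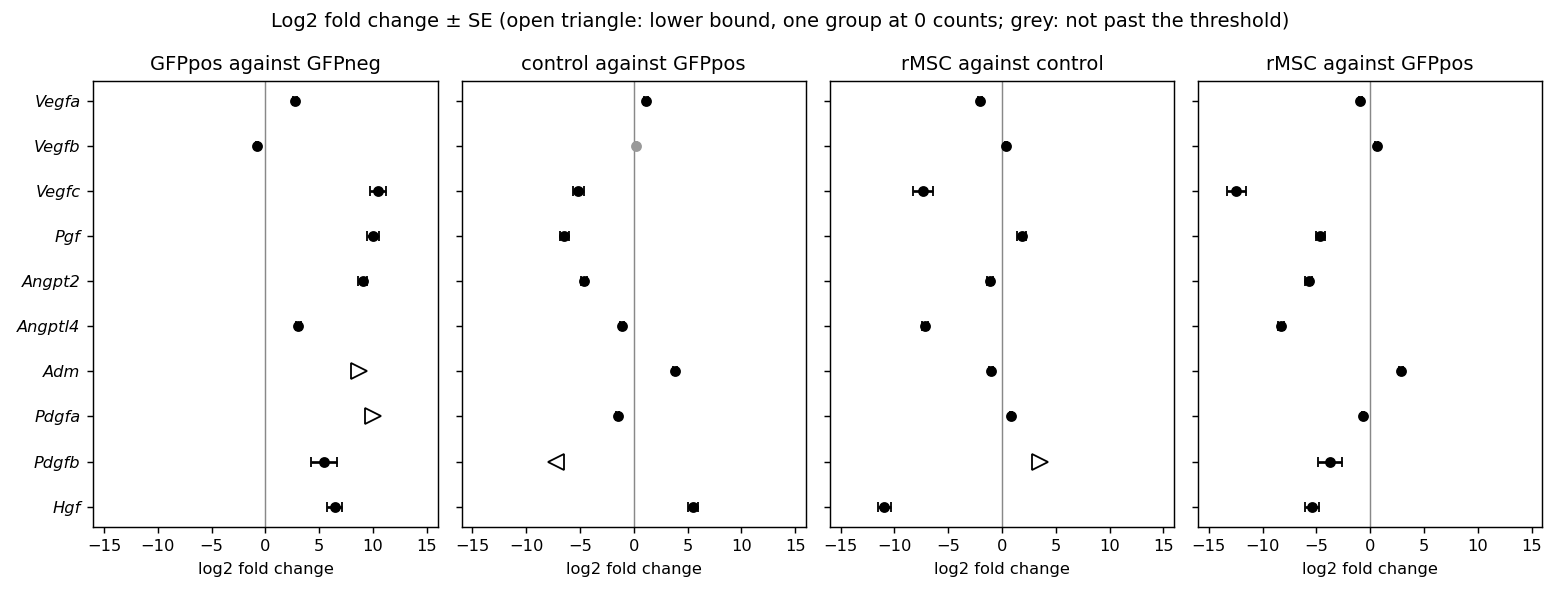
Log2 fold change with its SE for each of the 10 genes in the 4 comparisons (positive: higher in the first group named). Open triangles are lower bounds where 1 group has 0 counts, and the grey point is Vegfb in control against GFPpos, which did not pass. The points for rMSC against control run from -10.92 for Hgf to 1.82 for Pgf.

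Levels of the genes set against each other per kilobase of exon put Vegfb first in GFPneg, Angptl4 and Vegfc in GFPpos and Adm in both cultures. In GFPneg, Vegfb led at 26.4 ± 0.752 CPM per kilobase, before Angptl4 (7.14 ± 0.769) and Vegfa (3.09 ± 0.171). In GFPpos, Angptl4 (59.0 ± 20.6) and Vegfc (50.9 ± 13.1) overlapped within their SDs and stood above Vegfa (21.0 ± 6.37) and Pgf (19.3 ± 2.90), which overlapped too. In control, Adm led at 143.8 ± 5.47, before Vegfa (46.6 ± 1.12), Angptl4 (27.5 ± 1.78) and Hgf (25.4 ± 0.556). In rMSC, Adm led at 72.5 ± 8.98, before Vegfb (22.9 ± 0.603), Vegfa (11.2 ± 0.505) and Pdgfa (7.96 ± 0.601). The longest transcript of Hgf is 3468 bases of its 7186 exon bases, and with it Hgf stood at 52.6 ± 1.15 in control, above Angptl4 (29.5 ± 1.90).

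The receptors of these factors were read next, from lists that also hold endothelial markers, whose part in the receptor values was not tested. The counts of this list and of those below stand beside the shares of all 15163 genes tested. In GFPpos against GFPneg 40.5% were called higher and 36.5% lower, and in control against GFPpos 32.5% and 35.9%. In rMSC against control the shares were 24.5% and 25.5%, and in rMSC against GFPpos 33.4% and 38.2%. Of 5 VEGF and Pgf receptors, 3 were higher and none lower in GFPpos than in GFPneg (median log2 fold change 4.67), 2 were lower in control than in GFPpos (-2.72), 1 was higher and 1 lower in rMSC than in control (-2.44), and 4 were lower in rMSC than in GFPpos (-5.17). The medians of -2.72, -2.44 and -5.17 are the values of Flt1, which averaged 0.220 CPM in control and 0.0376 in rMSC. Flt1 did not pass in control against GFPpos (adjusted p = 0.161) or in rMSC against control (adjusted p = 0.282). A fit of the 2 groups alone called the first (adjusted p = 0.0479) and voom the second (adjusted p = 0.0176). Kdr, the main receptor of VEGF-A, stood at 11.4 ± 12.3 CPM in GFPpos, 1.69 ± 2.92 in GFPneg and 0.821 ± 0.386 in control, with 0 counts in rMSC, and passed in rMSC against GFPpos alone of the 4 comparisons (adjusted p = 0.0102), where GFPpos was at least 247-fold higher. GFPpos replicate 1 held 25.5 CPM of Kdr and the lowest library 3.36, and without replicate 1 this fitted log2 fold change went from -12.62 to -11.19. With the replicate block Kdr also passed in GFPpos against GFPneg (4.53, adjusted p = 0.0438) and in rMSC against control (-10.19, adjusted p = 0.0362), the latter also with DESeq2 (adjusted p = 1.05e-14), the pair alone (adjusted p = 1.28e-05) and voom (adjusted p = 0.00188). The pair alone (adjusted p = 0.0079) and voom (adjusted p = 0.00455) called control against GFPpos as well, and voom called GFPpos against GFPneg (adjusted p = 0.00146). Without GFPneg replicate 1, which held the Kdr counts of its group, Kdr passed in all 4 comparisons (adjusted p = 0.000737, 0.00767 and 0.00473 in the first 3), and rMSC against control also passed without GFPneg replicate 2 or 3 (adjusted p = 0.0448 and 0.0462). Flt1 averaged 1.46 ± 1.81 CPM in GFPpos and at most 0.239 elsewhere, and passed for rMSC against GFPpos (-5.17 ± 1.90, adjusted p = 0.0301) but not with the replicate block (-4.30, adjusted p = 0.0612), nor without GFPpos replicate 1 (-3.34, adjusted p = 0.118), rMSC replicate 1 (-4.63, adjusted p = 0.0928) or rMSC replicate 2 (-4.62, adjusted p = 0.0924), and it was -9.66 without rMSC replicate 3. Flt1 in GFPpos against GFPneg (2.62 ± 1.63, adjusted p = 0.164) passed with voom (4.35, adjusted p = 0.0333) and without GFPneg replicate 1 (6.73, adjusted p = 0.012).

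The neuropilins, co-receptors of VEGF and Pgf that stroma also carries, were abundant and parted in culture. Nrp1 stood at 1.03 ± 1.41 CPM in GFPneg, 322.6 ± 80.6 in GFPpos, 32.7 ± 2.16 in rMSC and 414.8 ± 4.09 in control, and was lower in rMSC than in control (-3.66 ± 0.63, adjusted p = 0.000624). Nrp2, the partner of the VEGF-C receptor, stood at 0.0969 ± 0.147 CPM in GFPneg, 373.3 ± 107.6 in GFPpos, 417.4 ± 3.15 in rMSC and 81.2 ± 2.16 in control, and was higher in rMSC than in control (2.36 ± 0.35, adjusted p = 0.00022). In rMSC against GFPpos, Nrp1 was lower (-3.30 ± 0.62, adjusted p = 0.000609), and Nrp2 did not pass (0.16 ± 0.33, adjusted p = 0.676).

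Of 10 receptors of the other factors, 8 were higher and none lower in GFPpos than in GFPneg (median 4.65), 4 were higher and 3 lower in control than in GFPpos (0.75), 1 was higher and 4 lower in rMSC than in control (-0.41), and 2 were higher and 4 lower in rMSC than in GFPpos (-0.38). Pdgfra, which binds the Pdgfa product, went from 333.6 ± 52.3 CPM in GFPpos to 1082 ± 19.6 in control (1.70 ± 0.38, adjusted p = 0.00217) and 336.8 ± 12.2 in rMSC (-1.68 ± 0.38 against control, adjusted p = 0.00357). It was thus highest in control, where Pdgfa was lowest of these 3 groups. Pdgfrb stood at 835.5 ± 148.2, 1095.5 ± 24.2 and 618.9 ± 6.96 CPM in these groups and did not pass in control against GFPpos, rMSC against control or rMSC against GFPpos (adjusted p = 0.487, 0.184 and 0.437). These calls depended on the spread used, since voom with group weights called all 3 (adjusted p = 0.0143, 6.73e-09 and 0.00961), and the 2 groups alone called rMSC against control (-0.82, adjusted p = 4.11e-12) and against GFPpos (-0.45, adjusted p = 0.0241). The first of these also passed without GFPneg replicate 1 (adjusted p = 0.0278) or 2 (adjusted p = 0.0206).

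Met, the receptor of Hgf, stood between 10.4 and 14.8 CPM in control and between 52.5 and 59.1 in rMSC, where Hgf was near 0, but the difference did not pass (2.20 ± 0.93, adjusted p = 0.0717). At the same fold it passed with the 2 groups alone (adjusted p = 2.73e-10) and with voom (adjusted p = 5.68e-10), and when GFPpos replicate 1, 2 or 3 was left out (adjusted p = 0.0126, 5.51e-05 and 0.0221). In GFPpos, Met was 0.699 ± 1.21 CPM, between 0 and 2.10. Tek, the angiopoietin receptor and an endothelial marker, stood at 7.87 ± 0.819 CPM in control and 0.0109 ± 0.0189 in rMSC (-9.35 ± 1.4, adjusted p = 0.000249), or -12.11 without rMSC replicate 1. For adrenomedullin, Calcrl stood at 16.6 ± 7.18 CPM in GFPpos, 36.0 ± 1.03 in control and 13.3 ± 0.664 in rMSC, and was lower in rMSC than in control (-1.43 ± 0.28, adjusted p = 0.00168), as Adm was. Its partner Ramp1, with which it forms the receptor of the related peptide CGRP, went the other way, from 0.161 ± 0.0933 to 5.12 ± 0.761 CPM (4.98 ± 0.42, adjusted p = 3.78e-06).

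**Figure D4:**
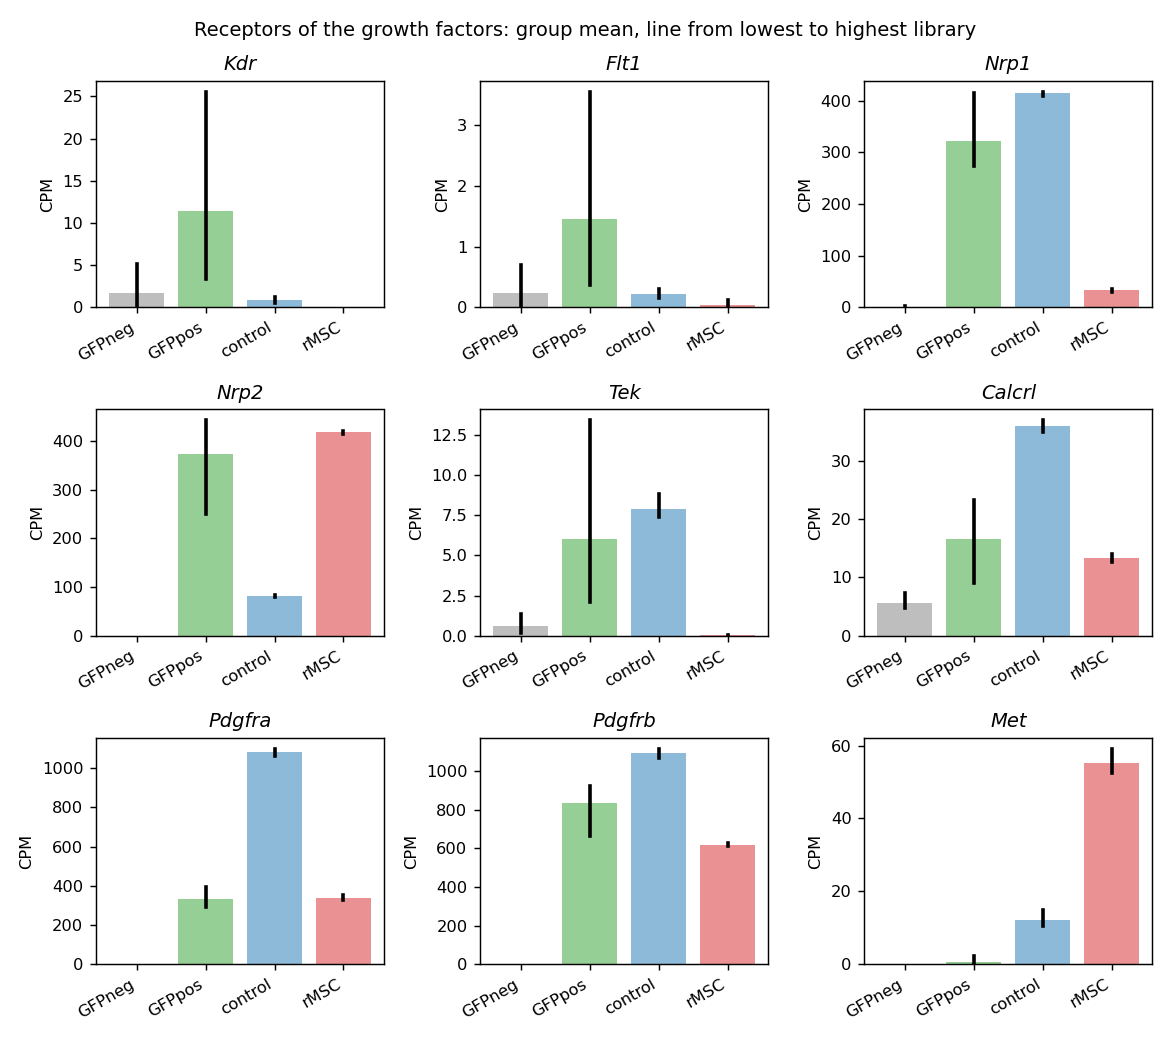
Mean level in CPM (bars, linear axis, own scale per gene) of 9 receptors in the 4 groups, with a line from the lowest to the highest of 3 libraries. Nrp1 is low in rMSC (30.3 to 34.4 CPM) and Nrp2 high (413.8 to 419.6), while Kdr reaches 25.5 CPM in 1 GFPpos library and has no count in rMSC.

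Several of the factors are cut or modified outside or on the way out of the cell, and 12 of 14 genes of such enzymes and their inhibitors were tested (Hgfac and Spint1 were not). Of these, 7 were higher and 2 lower in GFPpos than in GFPneg (median 0.71), 3 and 5 in control against GFPpos (-0.24), 3 and 8 in rMSC against control (-1.96) and 6 and 5 in rMSC against GFPpos (0.06). Ccbe1 and Adamts3 act together to mature VEGF-C. Ccbe1 stood at 62.0 ± 19.9 CPM in GFPpos, at least 1584-fold above GFPneg (adjusted p = 2.39e-08). Adamts3 stood at 7.64 ± 1.76 CPM in GFPpos, at least 166-fold above rMSC (adjusted p = 7.12e-07), and at 9.07 ± 1.13 CPM in GFPneg, where Vegfc was near 0. The proprotein convertases, which trim VEGF-C and the PDGF chains, parted between the cultures, since Pcsk5 fell from 75.6 ± 3.70 CPM in control to 0.0313 ± 0.0542 in rMSC (-11.19 ± 0.67, adjusted p = 3.16e-07, with -15.37 without rMSC replicate 2 and -10.57 without replicate 3) and Pcsk6 rose from 7.93 ± 0.667 to 847.5 ± 8.68 (6.74 ± 0.35, adjusted p = 1.16e-07). Of the proteases that can activate Hgf, Plat fell from 303.8 ± 3.36 to 10.1 ± 1.48 CPM (-4.91 ± 0.78, adjusted p = 0.000825). Pam, which amidates adrenomedullin, rose from 87.1 ± 1.50 to 218.3 ± 4.92 CPM (1.33 ± 0.20, adjusted p = 0.000255).

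Of the 10 HIF pathway genes, 6 were higher and 3 lower in GFPpos than in GFPneg (median 0.91), 5 and 2 in control against GFPpos (0.58), 3 and 6 in rMSC against control (-0.66) and 2 and 4 in rMSC against GFPpos (-0.03). Over all genes tested, the shares higher and lower were, in the same order, 40.5 and 36.5%, 32.5 and 35.9%, 24.5 and 25.5%, and 33.4 and 38.2%. Hif1a, the oxygen-regulated subunit of HIF, stood at 22.1 ± 0.613 CPM in GFPneg, 116.9 ± 19.3 in GFPpos, 203.4 ± 2.82 in rMSC and 906.2 ± 30.8 in control. Like Vegfa it was highest in control and lower in rMSC than in control (-2.16 ± 0.11, adjusted p = 8.83e-08). In rMSC against GFPpos, Hif1a was higher (0.80 ± 0.10, adjusted p = 3.51e-05) where Vegfa was lower (-0.91 ± 0.16, adjusted p = 0.000458). Epas1, which encodes HIF-2 alpha, was highest in GFPpos at 567.3 ± 233.2 CPM and stood at 14.3 ± 1.11 in control (-5.31 ± 0.98, adjusted p = 0.000614). In rMSC Epas1 stood at 83.3 ± 4.83 CPM, above control (2.54 ± 0.86, adjusted p = 0.0307). That call was lost with DESeq2 (adjusted p = 0.132) and when any 1 library of the cultures was left out (adjusted p = 0.0664 to 0.104). Of the same list, Arnt2 was higher in rMSC than in control (3.26 ± 0.72, adjusted p = 0.00521) and Arnt lower (-0.88 ± 0.06, adjusted p = 1.26e-06). The HIF proteins are controlled mainly after translation and were not measured, and their part in the levels of the 10 genes was not tested. Among 16 other genes that hypoxia induces, 8 were higher and 4 lower in GFPpos than in GFPneg (median 0.86), 9 and 4 in control against GFPpos (1.08), 3 and 10 in rMSC against control (-0.64) and 8 and 3 in rMSC against GFPpos (0.61). Slc2a1, a glucose transporter, rose from 19.4 ± 2.02 to 139.4 ± 0.981 CPM from GFPpos to control (2.84 ± 0.18, adjusted p = 2.07e-07) and Bnip3, of mitochondrial clearance, from 29.1 ± 4.09 to 172.5 ± 8.57 (2.57 ± 0.15, adjusted p = 1.32e-07). Vegfa and Adm rose in this comparison too, whereas Ndrg1 was among the 4 that fell (-1.72 ± 0.12, adjusted p = 5.16e-07), and of the members known as HIF targets Angptl4 and Pdgfb also fell. In rMSC against control the list did not move as one, since P4ha2, a collagen prolyl hydroxylase, fell (-1.85 ± 0.12, adjusted p = 5.96e-07) and Ndrg1 rose from 36.5 ± 2.13 to 359.7 ± 7.40 CPM (3.30 ± 0.13, adjusted p = 2.54e-08).

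Of 10 PPAR genes with lipid and glucocorticoid targets, 7 were higher and 3 lower in GFPpos than in GFPneg (median 1.82), 2 and 6 in control against GFPpos (-0.88), 3 and 2 in rMSC against control (-0.29) and 3 and 6 in rMSC against GFPpos (-1.17). Pparg, the receptor that drives fat cell genes, stood at 54.7 ± 13.5 CPM in GFPpos, 16.6 ± 1.39 in control and 4.49 ± 0.261 in rMSC, with rMSC below GFPpos (-3.61 ± 0.64, adjusted p = 0.000452). Angptl4 held the same order in these groups, as did Vegfc and Angpt2. In GFPneg the order was not shared, since Pparg (0.380 ± 0.477 CPM) lay below rMSC there and Angptl4 (25.3 CPM) lay above it. The Pparg difference between rMSC and control (-1.89 ± 0.61, adjusted p = 0.0238) missed the threshold when any 1 library of these cultures was left out (adjusted p = 0.0524 to 0.0763) and with DESeq2 (adjusted p = 0.0932). Pdk4, a PPAR target like Angptl4, rose in rMSC from 29.5 ± 1.404 to 59.6 ± 2.35 CPM (1.01 ± 0.13, adjusted p = 0.000253) where Angptl4 fell. Tsc22d3 of the same mixed list rose more, from 37.7 ± 1.99 to 123.5 ± 7.26 CPM (1.71 ± 0.16, adjusted p = 9.59e-06). The part of PPAR or of glucocorticoids in the Angptl4 values was not tested.

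Of 15 other angiogenic ligands, 12 were higher and 1 lower in GFPpos than in GFPneg (median 5.68), 8 and 4 in control against GFPpos (1.02), 5 and 5 in rMSC against control (0.61) and 9 and 5 in rMSC against GFPpos (1.65). Angpt4, a further ligand of Tek, fell from 156.7 ± 3.19 CPM in control to 4.78 ± 0.357 in rMSC (-5.04 ± 0.25, adjusted p = 1.01e-07), while Pdgfd rose from 0.302 ± 0.0626 to 12.1 ± 1.14 (5.31 ± 0.37, adjusted p = 9.87e-07). Of 11 genes listed as inhibitors of angiogenesis, all 11 were higher in GFPpos than in GFPneg (median 6.97, or 6.57 with genes at 0 set at their bound), 4 were higher and 2 lower in control against GFPpos (0.29), 4 and 5 in rMSC against control (-0.10) and 3 and 4 in rMSC against GFPpos (0.52). Vash2 was among the 4 higher in control (2.13 ± 0.38, adjusted p = 0.000515), and whether each listed gene inhibits vessel growth was not tested. Thbs1 and Thbs2, the thrombospondins, which block VEGF signalling, changed in opposite directions in rMSC against control: Thbs1 rose from 2459 ± 81.1 to 40062 ± 1746 CPM (4.03 ± 0.72, adjusted p = 0.000819) and Thbs2 fell from 4543 ± 112.9 to 179.4 ± 20.5 (-4.66 ± 0.51, adjusted p = 2.55e-05). Timp3, which binds the VEGF-A receptor Kdr, rose from 248.0 ± 12.6 to 10091 ± 197.6 CPM (5.35 ± 0.81, adjusted p = 0.000269).

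The gene closest to each factor in profile over the 12 libraries was taken by the root mean square difference of centred log2 CPM, as a description with no test. Vegfb had the closest neighbours, Mat2b (0.10) and Tbc1d25 (0.11), and Vegfa the next, Irak3 (0.14) and Ddah2 (0.18). Pdgfa lay closest to Pla2r1 (0.17) and Kcnma1 (0.40), Adm to Clip3 (0.41) and Fzd2 (0.54), and Angptl4 to Mc2r (0.41) and Arhgap6 (0.74). Angpt2 lay closest to Chst5 (0.52) and Col23a1 (0.65), Vegfc to Tmem176b (0.57) and Timp4 (0.75), Pdgfb to Colgalt2 (0.71) and Rhpn2 (0.93), Pgf to Akr1c12 (0.79) and Sult1a1 (0.80), and Hgf to Lgi2 and Tenm3 (both 0.86). None of the 10 factors was among the 2 genes closest to another. The profiles share the 12 libraries and their 4 groups, and with a prior count of 0.5 in place of 2 both neighbours were kept for 3 of the 10 genes.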

How the data were processed

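Libraries were made with SMART-Seq v4 and Nextera XT, a kit that does not mark strand, and read as 150 bp single ends, per the labels' protocols. Reads were aligned to mm10 with STAR 2.4.1c and counted with featureCounts 1.4.6, per the submitters' processing notes, and whether counting used strand is not given in the sources used here. The deposited values are raw counts per gene symbol, 24062 symbols in each of 12 files. The 27 symbols turned into dates (0.183 to 0.369% of counts) were left out. Positions and exon lengths came from GENCODE M21 on GRCm38, where 94.4% of symbols matched 1 gene model.

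Counts were fitted in R 4.3.3 with edgeR 4.0.16 (TMM factors, filterByExpr, quasi-likelihood F-test) over all 12 libraries and 4 groups with no other term, 8 residual degrees of freedom and prior degrees of freedom 2.52. P-values were adjusted by Benjamini-Hochberg over the 15163 genes that passed the filter, among them all 10 members, with a threshold of 0.05. The groups differed in spread, which this fit shares. Levels are CPM with TMM factors (mean ± SD, n = 3). Where a group had 0 counts, folds are bounds at 3 counts in each of its libraries. Total counts of 60396342 to 85186405 per library set the precision, and without molecular identifiers the reads are not independent molecules.

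Members and lists were chosen with earlier results of these data known. Named pathway genes were, for each list and comparison, drawn from the at most 2 higher and 2 lower genes with the largest fold change past the threshold with a mean of 5 CPM or more in one group, and 9 receptors whatever their values, and Figf and Pdgfc were shown with their families. Each library was left out in turn, and the fit was repeated with a replicate block, on 2 groups only, without the filter, with a filter of at least 50 counts in 3 libraries, with upper-quartile or RLE factors, in DESeq2 1.42.0, and by voom with weights per group in limma 3.58.1. Chosen after seeing the data were a fit without replicate 1 of GFPneg and GFPpos and family shares by the longest transcript.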

Additional observations from a re-analysis of the deposited data

How the results depend on the processing

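Of 840 fold changes of the 10 genes under 21 alternatives, 836 kept their direction and their side of the threshold, 3 lost the call and 1 gained it, each with 1 library left out as given with Vegfb and Pdgfb above, and none reversed. Called members ranged over these alternatives from 10 to 10 in GFPpos against GFPneg and from 9 to 10 in each other comparison. Called genes ranged from 9990 to 11886, 9312 to 10904, 6456 to 10585 and 9848 to 11276 in the order of the report. With the replicate number as a block, 11397, 10033, 7330 and 10552 genes and 10, 9, 10 and 10 members were called. Deviations of same-numbered libraries correlated at -0.025 to 0.160, so the numbers were not shown to pair them, and only in rMSC against control did every library correlate best with its own number.

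RLE and upper-quartile factors moved the median log2 fold change of all genes in GFPpos against GFPneg from 0.08 to 0.20 and 0.21. Of 40 levels per length, 21 moved by more than 1 SD with the longest transcript and 3 without TMM factors. Reversed signs were seen in receptors that had not passed or rest on few counts. Without GFPpos replicate 1, and also without replicate 1 of both fresh groups, Nrp2 in rMSC against GFPpos was -0.0591 and -0.0592 (up to 0.303 without another library). Met in GFPpos against GFPneg (5.99) was -2.56 without GFPpos replicate 2 and 8.53 without GFPneg replicate 1, Tek in control against GFPpos (0.39) was -0.0150 without GFPpos replicate 3 and 1.77 without replicate 1, and Calcrl in rMSC against GFPpos (-0.32) was 0.00631 without GFPpos replicate 2 and -0.62 without replicate 1. Pdgfra in rMSC against GFPpos (0.01) was -0.0333 with upper-quartile factors, -0.00940 with at least 50 counts in 3 libraries, -0.00568 with the pair alone, -0.0251 without replicate 1 of both fresh groups, and between -0.0691 and 0.149 with 1 library left out. The cause of these was not tested. Depth limits the fold changes that rest on few counts over a group's 3 libraries, which are 20 of Vegfc, 12 of Pgf, 25 of Angpt2, 36 of Pdgfb and 10 of Hgf in GFPneg, and 4 of Vegfc and 18 of Hgf in rMSC.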
